A study of Zea mays with 6 samples.

Results

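The expression of 6 storage protein genes of maize endosperm was compared between wild type (WT) and the *zmnac128 zmnac130* mutant, in which a duplicated pair of NAC transcription factor genes is knocked out. The 6 genes were chosen by their IDs from the 44303 genes in the tables, as zein and other nutrient reservoir genes. All 6 belong to the highly and differentially expressed genes (hdEGs) that the study selected partly on these samples. That they differ here, and in which direction, is therefore not independent evidence. The RNA came from whole endosperm at 16 days after pollination (16 DAP), and polyadenylated RNA was sequenced. Both genotypes were F2 offspring of the inbreds B73 and KN5585, so alleles of either parent can be present in each group. The mutant carried knockouts of ZmNAC128 and ZmNAC130 that had been made in KN5585, and the wild type carried neither. Near ZmNAC128 and ZmNAC130, genotype and parental origin therefore cannot be told apart. RNA was extracted from several endosperms of each genotype, and the labels do not say whether the replicates came from separate plants.

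Expression is given in FPKM as the authors deposited it, the fragments of a gene divided by its exon length and by the mapped fragments of the library. The tables list 3 samples per genotype, but the sample labelled replicate 3 repeated replicate 1 in all 44303 genes of both genotypes. Replicates 1 and 3 therefore counted as 1 sample, and each genotype had 2 libraries. For the hdEGs the study also lists values of a further sample per genotype that are not copies, and these were not used here. The libraries held between 26317317 and 30696032 reads in genes, a depth read from the smallest steps between FPKM values. The p-values measure only the spread between these libraries, and an exact permutation test of 2 against 2 libraries cannot go below 0.333. The transcripts of ZmNAC128 and ZmNAC130 were not analysed here, because the tables do not pair IDs with names, so the genotype labels were not checked against them.

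Zeins are the prolamins of maize, the alcohol-soluble proteins that hold most of the nitrogen stored in the kernel. They are made on the rough endoplasmic reticulum during grain filling and are packed into protein bodies, where cysteine-rich gamma zeins lie mainly at the periphery and alpha zeins fill the core. Alpha zeins come from multigene families of near-identical copies and hold almost no lysine, which is why zein content bears on the feed value of maize. The bZIP factor Opaque2 and the DOF factor PBF1 are well known activators of zein genes.

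Of the 6 genes, 3 are alpha zeins, and 2 of these encode proteins of the 19 kDa class and belong to the z1D family: *z1D_2* (Zm00001eb030130) and *z1D_4* (Zm00001eb030160). By RefSeq's gene models for the assembly Zm-B73-REFERENCE-NAM-5.0, *z1D_2* lies on chromosome 1 from 165571085 to 165571958, and *z1D_4* lies on the same chromosome from 165789151 to 165789979, 217192 bases further on. The third, *z1C1_8* (Zm00001eb166620), encodes a protein of the 22 kDa class and lies on chromosome 4 from 6153607 to 6154565. Zm00001eb313790 is described as the 50 kDa gamma zein. Zm00001eb166950 carries the description of a putative storage protein, taken over from the grass *Eragrostis tef*, and Zm00001eb166610 has no description and is listed under nutrient reservoir activity. These last 3 genes were not matched to RefSeq, and no position is given for them. The sources used here do not give how reads that fit several zein copies were counted, so the split of reads between close copies is uncertain for each alpha zein.

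All 6 genes were lower in *zmnac128 zmnac130* than in WT, with log2 fold changes from -1.09 in *z1D_2* to -2.85 in *z1C1_8* and -3.08 in the 50 kDa gamma zein. In each gene both mutant libraries lay below both WT libraries. Each of the 6 was called lower by limma (an absolute log2 fold change above 1 and a Benjamini-Hochberg adjusted p below 0.05), where 7.18% of the 19082 genes tested were called lower. With the first or the second WT library left out, 2 of the 6 were called, and with the second mutant library left out, 5. Among the 37 genes whose WT mean reached 1000 FPKM, 43.2% were called lower. The 6 genes are themselves among these 37, so neither this share nor the median of the abundant genes is a separate background. Genes whose 2 mutant libraries both lay below both WT libraries made up 37.2% of those tested. The median log2 fold change of the 6 genes was -1.75, against 0.0068 over all genes tested and -0.75 over the abundant genes. Fold changes here are on the scale of log2(FPKM + 1). In endosperm RNA taken as a whole, fewer cells of a type and less RNA per cell cannot be told apart.

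**Figure D1:**
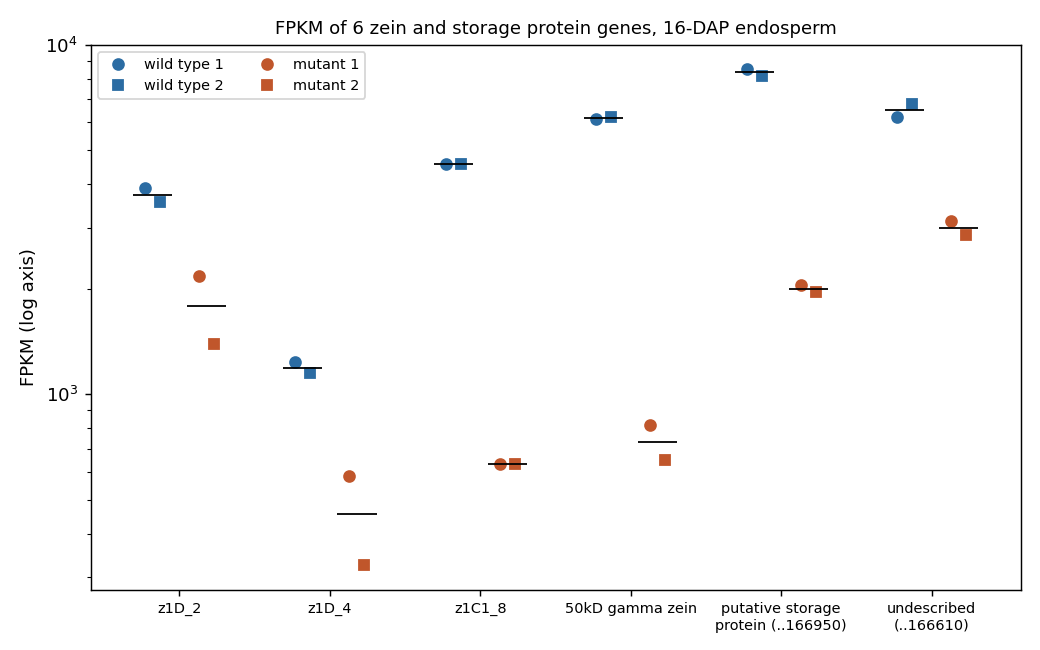
FPKM of the 6 genes (log axis) in the 2 WT and 2 mutant libraries; each point is a library and each black line the mean of a genotype. Both mutant points lie below both WT points in every gene, and the mutant points of *z1D_2* and *z1D_4* lie far apart.

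The 19 kDa alpha zein *z1D_2* stood at 3880 and 3548 FPKM in WT and at 2187 and 1391 FPKM in *zmnac128 zmnac130*. The genotypes did not overlap, but the mutant libraries were far apart, and the higher of them reached 61.6% of the lower WT value. The means were 3714 ± 234 and 1789 ± 563 FPKM (SD, n = 2), so that the mutant kept 48.2% of the WT level. The log2 fold change was -1.09 (SE 0.24, limma adjusted p = 0.0140). Without the second mutant library it was -0.76 (limma adjusted p = 0.0174), short of the fold change that a call needs. With the first or the second WT library left out it was not called either, at limma adjusted p of 0.219 and 0.189.

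Its family member *z1D_4* had the lowest FPKM of the 6 genes in every library. It stood at 1234 and 1149 FPKM in WT and at 583 and 325 FPKM in the mutant. As in *z1D_2*, replicate 1 was the higher of the mutant libraries, and both lay well below WT. The means were 1191 ± 60.1 and 454 ± 182 FPKM (SD, n = 2), and the log2 fold change was -1.45 (SE 0.27, limma adjusted p = 0.00715). With the first or the second WT library left out the call was lost, at limma adjusted p of 0.123 and 0.112. The length that the FPKM steps imply for *z1D_4* was 1464 bases, 1.77 times the 829 bases of the gene in RefSeq, whereas that of *z1D_2* was 892 bases against 874. FPKM divides by length, so the distance between the levels of the pair depends on the gene model. In FPKM *z1D_2* was 3.14 and 3.09 times as high as *z1D_4* in WT, but in reads 1.92 and 1.88 times. By reads *z1D_4* was not the lowest of the 6 in the first mutant library, where it had 26193 reads and *z1C1_8* had 23543. The fold change of each gene between genotypes does not depend on its length.

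The 22 kDa alpha zein *z1C1_8* showed a larger difference and very close replicates. It was at 4545 and 4550 FPKM in WT and at 630.7 and 631.9 FPKM in *zmnac128 zmnac130*. Each pair of libraries was nearly level, and the mutant libraries lay at 13.9% of WT. The log2 fold change was -2.85 (SE 0.13, limma adjusted p = 6.73e-05), and the call held with any 1 of the 4 libraries left out. The replicate differences were smaller than the SD that counting reads alone gives, 0.0017 against 0.0052 in WT and 0.0027 against 0.013 in the mutant on the log2 scale. The other 5 genes differed between replicates by more than their counting SD in both genotypes.

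The 50 kDa gamma zein, a member of the cysteine-rich class, had the largest log2 fold change of the 6 genes. It was at 6150 and 6211 FPKM in WT and at 816 and 649 FPKM in *zmnac128 zmnac130*. The WT libraries were close together and the mutant libraries less so, with the higher mutant value at 13.3% of the lower WT value. The means were 6180 ± 43.1 and 733 ± 118 FPKM (SD, n = 2), which left 11.9% of the WT level. The log2 fold change was -3.08 (SE 0.17, limma adjusted p = 1.09e-04), and leaving out any 1 library did not end the call.

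The putative storage protein Zm00001eb166950 was the most abundant of the 6 genes in WT. It stood at 8496 and 8157 FPKM in WT and at 2055 and 1956 FPKM in *zmnac128 zmnac130*. Replicates were close in both genotypes, and the mutant mean was 24.1% of the WT mean. The log2 fold change was -2.05 (SE 0.17, limma adjusted p = 4.35e-04), and with the first or the second WT library left out it was not called (limma adjusted p = 0.0730 and 0.0728). The length implied by its FPKM steps was 4214 bases, the longest of the 6, so it held more reads for its FPKM than the others. It took 3.58% and 3.44% of all reads in genes in the WT libraries, second among all genes in both, and 0.866% and 0.824% in the mutant libraries, where it was eighth and seventh.

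Zm00001eb166610, the reservoir gene without a description, stood at 6225 and 6762 FPKM in WT and at 3122 and 2855 FPKM in *zmnac128 zmnac130*. Unlike in the z1D genes and Zm00001eb166950, the second WT library was the higher, and the genotypes were far apart. The means were 6493 ± 379 and 2989 ± 189 FPKM (SD, n = 2), and the mutant kept 46.0% of WT. The log2 fold change was -1.12 (SE 0.18, limma adjusted p = 0.00450). With the first or the second WT library left out the call was lost, at limma adjusted p of 0.198 and 0.229.

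**Figure D2:**
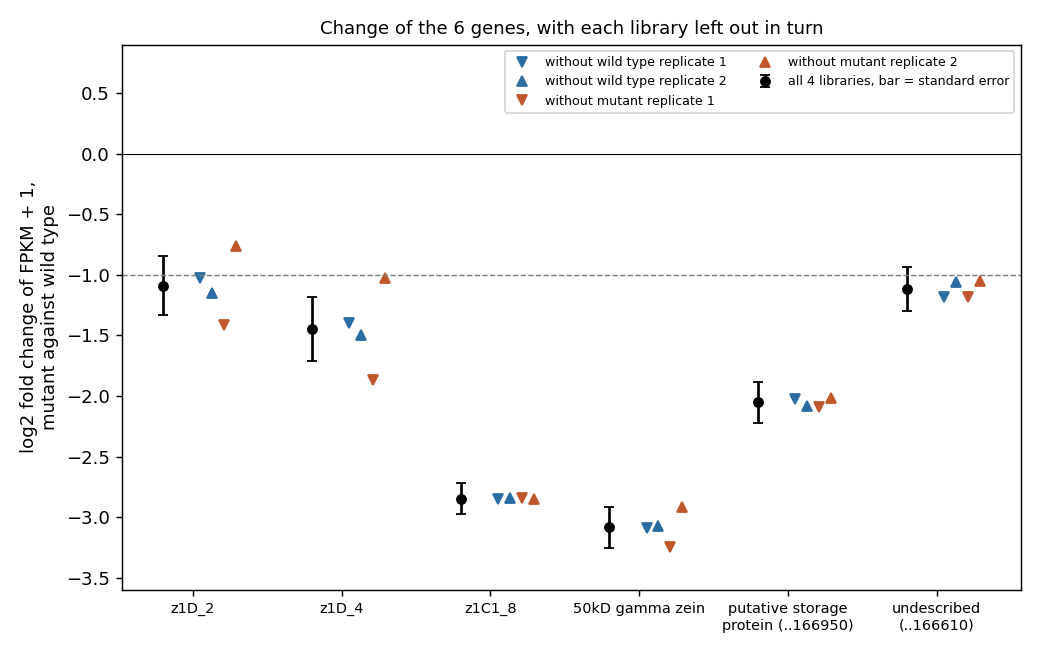
Log2 fold change of FPKM + 1, mutant against WT, for the 6 genes; black points use all 4 libraries with bars for the standard error, and triangles leave out 1 library each. *z1D_2* ranges from -1.41 to -0.76 and crosses the dashed line at -1, while *z1C1_8* stays at -2.85 throughout.

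The ranks of the 6 genes among all 44303 genes moved unequally. In WT the putative storage protein ranked 8 and 7 by FPKM, Zm00001eb166610 ranked 11 and 10, the 50 kDa gamma zein ranked 12 in both libraries and *z1C1_8* ranked 15 in both. In the mutant these genes ranked 23 and 24, 18 and 18, 53 and 76, and 77 and 78. The alpha zein *z1D_2* went from 17 and 16 to 22 and 31, and *z1D_4* from 33 and 34 to 80 and 176. By FPKM Zm00001eb166610 was the highest ranked of the 6 in the mutant, and *z1D_4* the lowest. Both ends depend on the gene lengths: by reads Zm00001eb166950 ranked highest of the 6 in both mutant libraries, and *z1C1_8*, at 90, ranked below *z1D_4*, at 81, in the first.

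The order of the 6 genes by FPKM was identical in the WT libraries. From the highest it ran from Zm00001eb166950 through Zm00001eb166610, the 50 kDa gamma zein, *z1C1_8* and *z1D_2* to *z1D_4*. The ranges of neighbours did not overlap in WT, although in the first library Zm00001eb166610 exceeded the 50 kDa gamma zein only 1.01 times. In *zmnac128 zmnac130* Zm00001eb166610 led in both libraries. The second and the third place were held by *z1D_2* and Zm00001eb166950 in 1 library and in the reverse order in the other, and their ranges overlapped. The 50 kDa gamma zein, *z1C1_8* and *z1D_4* followed in both, and in the first mutant library *z1D_4* stood close below *z1C1_8*, at 583 and 630.7 FPKM. The highest mean of the 6 was 6.99 times the lowest in WT and 6.58 times in the mutant.

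Together the 6 genes took 4.91% and 4.98% of the summed FPKM in the WT libraries and 1.62% and 1.33% in the mutant libraries. The genotypes were far apart against their spread, with means of 4.94 ± 0.0442% and 1.48 ± 0.208% (SD, n = 2). The difference of 3.47 percentage points had a two-sided exact permutation p of 0.333, the smallest that 2 against 2 libraries allow. Counted in reads, the share was 6.16% and 6.05% in WT against 1.70% and 1.50% in the mutant. The FPKM of the 6 genes summed to 30529 and 30377 in WT and to 9394 and 7809 in the mutant. The FPKM of all other genes summed to 590786 and 580067 in WT and to 568737 and 579046 in the mutant, so that the second mutant library lay close to the second WT library there.

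**Figure D3:**
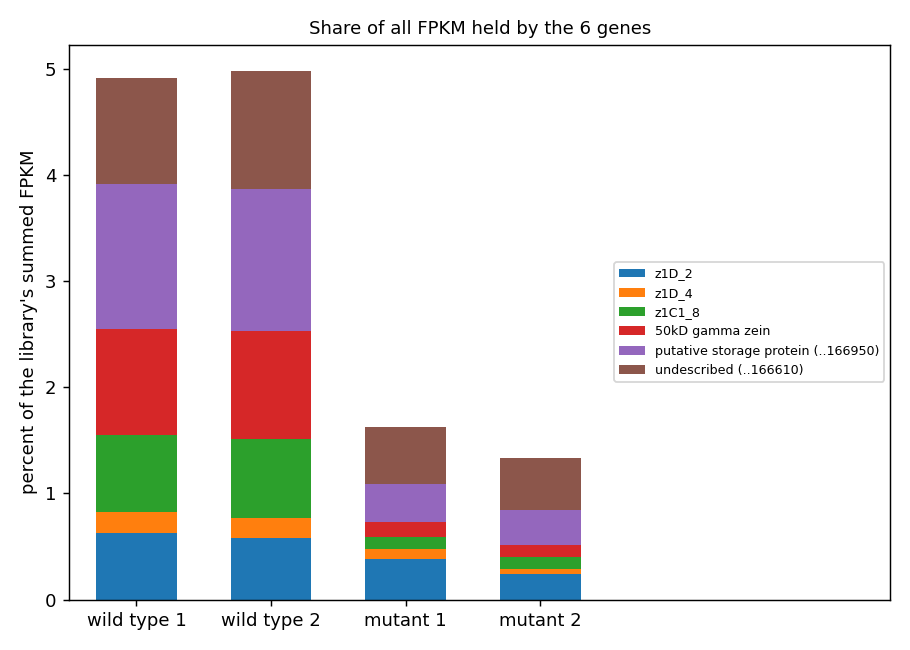
Percent of each library's summed FPKM held by the 6 genes, stacked by gene, in the 2 WT and 2 mutant libraries. The stacks reach 4.91% and 4.98% in WT and 1.62% and 1.33% in *zmnac128 zmnac130*, and the bands of the 50 kDa gamma zein and *z1C1_8* are the most reduced relative to their own height in WT.

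The make-up of this FPKM differed between genotypes as well. The 50 kDa gamma zein made up 20.1% and 20.4% of the FPKM of the 6 genes in WT, but 8.69% and 8.31% in the mutant. The share of *z1C1_8* was 14.9% and 15.0% in WT and 6.71% and 8.09% in the mutant. The share of Zm00001eb166610 was 20.4% and 22.3% in WT and 33.2% and 36.6% in the mutant, and that of *z1D_2* was 12.7% and 11.7% against 23.3% and 17.8%. The gamma and 22 kDa zein genes thus held less of the FPKM of the 6 in both mutant libraries, and *z1D_2* and Zm00001eb166610 held more. The putative storage protein made up 27.8% and 26.9% in WT against 21.9% and 25.1%, and *z1D_4* made up 4.04% and 3.78% against 6.20% and 4.17%.

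Ratios between genes of the same library do not depend on that library's total. The 6 genes give 15 ratios, of which 13 did not overlap between genotypes, and in 11 the change was larger than the spread between replicates in both genotypes. This criterion was chosen after the data were seen, and with 2 against 2 libraries no ratio could reach an exact permutation p below 0.333. The 15 ratios are built from the same 6 genes, so they are not independent. The share of other gene pairs without overlap was not computed. The ratio of *z1D_2* to *z1C1_8*, a 19 kDa against a 22 kDa alpha zein, was 0.854 and 0.780 in WT and 3.47 and 2.20 in the mutant. The ratio of Zm00001eb166610 to the 50 kDa gamma zein was 1.01 and 1.09 in WT and 3.82 and 4.40 in the mutant. The first ratio thus went from below to above 1, and the second from near 1 to far above it.

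Some ratios changed little against their spread. The ratio of *z1C1_8* to the 50 kDa gamma zein was 0.739 and 0.733 in WT and 0.773 and 0.974 in the mutant, a log2 change of 0.24 that was smaller than the mutant spread of 0.33. The ratio of *z1D_2* to Zm00001eb166610 was 0.623 and 0.525 in WT and 0.700 and 0.487 in the mutant, and the genotypes overlapped (two-sided exact permutation p = 1). Within the z1D family, *z1D_2* to *z1D_4* was 3.14 and 3.09 in WT and 3.75 and 4.28 in the mutant. That log2 change of 0.36 was larger than the spread of 0.026 in WT and 0.19 in the mutant.

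The 6 genes agreed between replicates to very different degrees. In WT the log2 difference between replicates 1 and 2 was 0.13 in *z1D_2*, 0.10 in *z1D_4*, 0.12 in Zm00001eb166610, 0.059 in Zm00001eb166950, 0.014 in the 50 kDa gamma zein and 0.0017 in *z1C1_8*. The median was 0.10 over the 74 genes whose WT mean reached 500 FPKM, a minimum chosen after the data were seen, so the z1D genes lay near that median in WT. In the mutant the differences were 0.65 in *z1D_2* and 0.84 in *z1D_4*, against a median of 0.22 and a 90th percentile of 0.41 over 98 genes at that level. No other of the 98 genes differed between the mutant replicates by more than *z1D_2*, and *z1D_4*, whose mutant mean is below that minimum, differed by more than all of them. The difference was 0.33 in the 50 kDa gamma zein, 0.13 in Zm00001eb166610 and 0.071 in Zm00001eb166950. In *z1C1_8* it was 0.0027, closer than in any other of these genes in either genotype. All of the 6 genes but *z1C1_8* were higher in replicate 1 of the mutant, as were 34.7% of the 98 genes. The 4 further genes that the study lists under nutrient reservoir activity were higher in replicate 1 of the mutant as well. Their differences were 0.45 in Zm00001eb171940, 0.43 in Zm00001eb170070, 0.29 in Zm00001eb144590 and 0.26 in Zm00001eb166940. Of these, Zm00001eb171940 and Zm00001eb170070 also lay above the 90th percentile of 0.41.

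**Figure D4:**
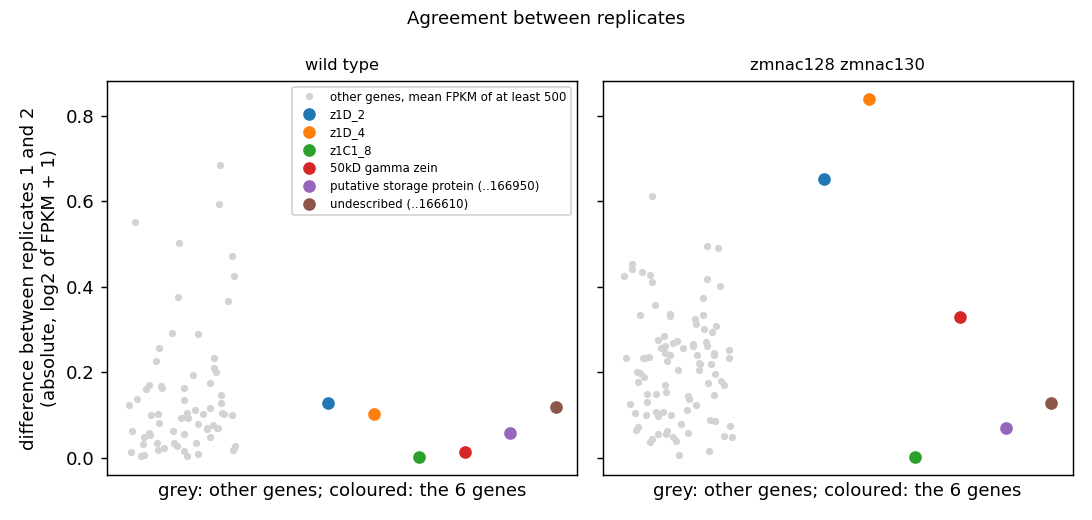
Absolute log2 difference between replicates 1 and 2 of each genotype, for the 6 genes (coloured) and for other genes whose mean in that genotype reached 500 FPKM (grey; their sideways scatter has no meaning). In the mutant, *z1D_4* at 0.84 and *z1D_2* at 0.65 lie above all grey points, while *z1C1_8* lies at the bottom of both panels.

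The study lists 4 further hdEGs under nutrient reservoir activity, and all 4 were also called lower, which makes 10 of 10. All 10 had been selected as differing, partly on these samples, so this count is not independent evidence. It cannot be read against the 7.18% of all genes tested that were called lower. With the first or the second WT library left out, 3 of the 10 were called, and with the second mutant library left out, 8. The 22 kDa alpha zein *z1C2* (Zm00001eb170070) was at 21765 and 20779 FPKM in WT and at 5385 and 4003 FPKM in the mutant, with a log2 fold change of -2.20. Zm00001eb171940, described only as a zein protein, was at 17103 and 17313 FPKM in WT and at 9515 and 6949 FPKM in the mutant, with a log2 fold change of -1.08 (limma adjusted p = 0.0216). It was not called without a filter on low values (limma adjusted p = 0.191), where 8 of the 10 genes were called, or with median-of-ratios scaling (0.0542), where 9 were. In FPKM both were more abundant in WT than any of the 6 genes, but in reads Zm00001eb166950 was above both. The 19 kDa alpha zein Zm00001eb166940 had a log2 fold change of -1.16, and the uncharacterized Zm00001eb144590 one of -1.93. All 10 genes took 11.6% and 11.7% of the summed FPKM in WT and 4.46% and 3.41% in the mutant. The 7 genes among the 10 whose descriptions name a zein were all called lower, and their log2 fold changes covered the range from that of Zm00001eb171940 to that of the 50 kDa gamma zein. Zein genes outside the hdEGs were not examined as a list, so these 7 do not stand for zeins in general.

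Other lists around storage protein came from descriptions of the study's hdEGs, which were selected as differing. Their directions and their counts of calls are therefore not independent evidence either. Of 4 other seed proteins, 3 were called lower, where 7.18% of all genes tested were. Among them, the ribosome-inactivating protein Zm00001eb350070 went from 1120 ± 81.4 to 273 ± 8.64 FPKM (SD, n = 2), a log2 fold change of -2.03. The antifungal zeamatin gene Zm00001eb325340 had a log2 fold change of -0.74 and was not called. Both proteases were called lower, the aspartic proteinase Zm00001eb091230 at -1.37 and the serine carboxypeptidase Zm00001eb374470 at -1.01. The lysine-ketoglutarate reductase gene Zm00001eb192910, whose product starts the breakdown of lysine, went from 82.4 to 33.7 FPKM, a log2 fold change of -1.28.

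Most of the chaperone and sulfur genes among these hdEGs were called higher, where 6.43% of all genes tested were. The hdEGs were selected as differing, partly on these samples, so the counts below cannot be read against that share. Of 6 chaperones, 5 were called higher, among them a low molecular weight heat shock protein (Zm00001eb193940, log2 fold change 1.64) and a mitochondrial chaperonin (Zm00001eb222300, 1.16), and an HSP40 gene (Zm00001eb146070) at -0.83 was not called. All 5 genes of sulfur assimilation and methionine were called higher, with log2 fold changes from 1.01 to 1.58. They include sulfite reductase (Zm00001eb292100), which makes sulfide for cysteine, at 1.06, and methionine adenosyltransferase (Zm00001eb417370), which uses methionine, at 1.58.

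Markers of other cell types were taken from the study's hdEGs, so they had already been selected as differing between the genotypes. Their counts of calls therefore cannot be read against the 7.18% lower and 6.43% higher among all genes tested. Of 5 markers, the basal endosperm transfer layer gene *betl3* (Zm00001eb137490), a caleosin (Zm00001eb253760) and the tonoplast protein TIP3-1 (Zm00001eb221090) were called lower, and 2 genes of photosynthetic membranes were called higher. The 3 lower ones summed to 234 and 292 FPKM in WT and to 75.2 and 61.1 FPKM in the mutant, and the 2 higher ones to 12.3 and 12.9 against 28.6 and 29.2 FPKM. None of the 5 was at 0 in any library. The 5 together summed to 247 and 305 FPKM in WT and to 104 and 90.3 FPKM in the mutant. All 5 are hdEGs, and their part in the levels of the 6 storage protein genes was not tested. The 6 storage protein genes themselves, of which the zeins mark starchy endosperm, were abundant in all 4 libraries. They stood at 1149 to 8496 FPKM in WT and at 325 to 3122 FPKM in the mutant.

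The gene most like each of the 6 outside the 10 reservoir genes was taken as the one at the smallest Euclidean distance over the 4 log2(FPKM + 1) values. For *z1D_4* it was Zm00001eb240870, described as uncharacterized, at a distance of 0.64. That gene stood at 1310 and 1253 FPKM in WT and at 423 and 436 FPKM in the mutant, without the gap between mutant replicates that *z1D_4* showed. For Zm00001eb166610 and for Zm00001eb166950 it was Zm00001eb166600, at distances of 0.82 and 1.75. Zm00001eb166600 stood at 4944 and 4764 FPKM in WT and at 4265 and 3555 FPKM in the mutant and was not called (log2 fold change -0.32, limma adjusted p = 0.217). For *z1C1_8* and the 50 kDa gamma zein it was the subtilisin-chymotrypsin inhibitor gene Zm00001eb355990, at distances of 1.84 and 2.31, and for *z1D_2* it was Zm00001eb378140 at 1.56. The log2 fold change of Zm00001eb355990 was -1.08, smaller in size than that of *z1C1_8* or the 50 kDa gamma zein. Zm00001eb378140 had one of -0.61 and was not called. Zm00001eb240870 and Zm00001eb355990 are hdEGs, and Zm00001eb166600 and Zm00001eb378140 are not.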

How the data were processed

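RNA-seq of 16-DAP endosperm was analysed from 2 distinct libraries per genotype. The authors aligned clean paired-end reads to the B73 genome (Zm-B73-REFERENCE-NAM-5.0) with HISAT2 and deposited FPKM values per gene. The sources used here give neither the version of HISAT2 nor the program that counted reads. The authors name DESeq for their own tests. Because FPKM values are not counts, log2(FPKM + 1) values of the 19082 genes whose mean reached 1 FPKM were compared with limma 3.58.1 in R 4.3.3 (lmFit, eBayes with trend, two-sided, 2 residual and 4.04 prior degrees of freedom). P-values were adjusted over these genes by the Benjamini-Hochberg method, and genes with an adjusted p below 0.05 and a log2 fold change beyond 1 in either direction were called. Shares and ratios were compared by exact permutation tests in Python 3.11.15. The procedure was tested on simulated data.

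Reads per gene were recovered from the steps of the FPKM values. Every one of the 33589 expressed genes gave whole reads, within 0.002 reads. A factor shared by all reads of a gene cannot be seen, so the smallest fitting length was taken, and the recovered reads summed to between 98.4% and 98.6% of the inferred depth. The 6 genes had between 13960 and 1019611 reads per library, and counting error was smaller than the difference between replicates in all but *z1C1_8*.

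The 6 genes and the gene lists were chosen with earlier results of these data known. Named genes are the 6 genes, the 4 other reservoir genes, at most 3 examples of each list and the nearest gene of each of the 6. Names came from the descriptions and accessions the study gives for its hdEGs and from RefSeq, which matched 3 of the 6. Protein and promoter sequences were not analysed here. Alternatives were pseudocounts of 0.1 and 10, dropping the filter or raising it to 10 FPKM, other scalings, a replicate block, leaving out each library in turn and eBayes with no trend. Limma voom on the recovered reads and the share of reads were added after the data were seen, as were the minimums of 500 and 1000 FPKM used for comparison genes.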

Additional observations from a re-analysis of the deposited data

How the results depend on the processing

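Among the alternatives that kept all 4 libraries, the 6 genes were all called lower except without a filter on low values, where *z1D_2* missed the threshold (log2 fold change -1.09, limma adjusted p = 0.0611) and 5 were called. The count of genes called across the table was 2598 (1227 higher and 1371 lower) and fell to 612 with a pseudocount of 10 and to 936 with a filter at 10 FPKM; with limma voom on the recovered reads it was 3498, an alternative added after the data were seen. Leaving out 1 library gave 2061 to 2724 calls across the table, 2 to 6 of the 6 genes and 3 to 10 of the 10 reservoir genes. Only 2 of the 6 genes, *z1C1_8* and the 50 kDa gamma zein, were called with the first or the second WT library left out, and 5 with the second mutant library left out. Where a genotype was left with 1 library, that library was assumed to vary like the other genotype. The log2 fold changes then ranged from -1.41 to -0.76 for *z1D_2*, -1.87 to -1.03 for *z1D_4*, -1.18 to -1.05 for Zm00001eb166610, -2.09 to -2.02 for Zm00001eb166950, -3.25 to -2.92 for the 50 kDa gamma zein and stayed at -2.85 for *z1C1_8*. The difference in the share of FPKM was 3.32 to 3.61 percentage points. Its value was 4.50 percentage points in reads. The differences between replicates 1 and 2 correlated at -0.078 between genotypes over genes, so no effect shared by replicate number was visible. This value cannot show whether samples of the same replicate number were paired, and the labels do not say. With a replicate block 2632 genes were called, all 6 genes among them, and 9 of the 10 reservoir genes. No result reversed its direction. The cause of each change was not tested.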
